A study of Rattus norvegicus with 9 samples.

Results

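Mature neutrophils were defined here as cells that carried the receptors for granulocyte colony-stimulating factor (Csf3r) and for ELR chemokines (Cxcr2), held abundant S100a8 and S100a9 mRNA, and had little mRNA of the secondary granule, defensin and chemokine genes named next. A cell entered the group when at least 1 UMI (a counted mRNA molecule) of Csf3r and of Cxcr2 was found and when, per 10000 of its UMIs, S100a8 and S100a9 reached 500 together, Ngp, Camp and Lcn2 stayed under 100, the defensins RatNP-3b, Np4, Defa11 and Defa5 stayed under 50, and Cxcl1, Cxcl2 and Cxcl3 stayed under 20. Of the 114232 cells that passed a floor of 200 genes and a ceiling of 20% mitochondrial UMIs, 1771 met this rule. The members were thus chosen by these measured values, and the levels of the rule's own genes are a description.

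The cells came from the tibial osteotomy site of Sprague-Dawley rats aged 6 to 8 weeks, sequenced with the 10x Genomics Chromium chemistry. Every rat, controls included, carried a circular tibial osteotomy of 3 mm and, on the same leg, a skin wound of 4 mm on the back of the foot. TO rats received no shock wave. The TOE schedule was radial shock waves at the osteotomy on day 2 and day 4, and tissue was taken 4 or 24 h after a session. Rats of TOE 2d 4h and TOE 2d 24h were thus sampled after the day 2 session only. TO 2d 0h was taken before the first session. The libraries used were TO 2d 0h, TO 2d 4h, TO 4d 4h, TO 4d 24h, TOE 2d 4h, TOE 2d 24h, TOE 4d 4h and TOE 4d 24h. The labels give 9 rats for 9 conditions, each condition has 1 library, and TO 2d 24h was not analysed here. Matched pairs of TOE and TO were therefore 2d 4h, 4d 4h and 4d 24h. Within a pair, the shock wave cannot be told apart from the difference between 2 animals or 2 library preparations, so no gene was tested. All intervals below are 95% intervals that cover counting error only.

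Neutrophils are made in the marrow, where the genes for granule proteins are switched on and off in sequence before the cell leaves for the blood. A mature neutrophil has largely stopped making granule mRNA, responds to CXCR2 ligands and Csf3r signals, and on stimulation can turn on a burst of inflammatory genes through NF-kB, a transcription factor that also induces its own inhibitors. Padi4, an enzyme that converts arginine in histones to citrulline, allows these cells to release chromatin as extracellular traps.

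Many cells lay at the receptor limits of the rule. Of the 1771 members, 809 had exactly 1 Csf3r UMI and 951 exactly 1 Cxcr2 UMI, while 854 cells met all the rest with no Csf3r UMI and 1408 with no Cxcr2 UMI. At the other limits, 18 members had 500 to 550 S100a8 and S100a9 UMIs per 10000 and 21 cells fell just outside with 450 to 500. For the secondary granule genes, 85 members lay at 80 to 100 and 60 cells just outside at 100 to 120. For the chemokine genes, 40 members lay at 15 to 20 and 37 cells just outside at 20 to 25. The chemokine limit alone set aside 409 cells that met every other part of the rule, the fewest (5) in TOE 4d 24h, the most (103) in TO 4d 4h. S100a8 and S100a9 took a median of 13.7% to 23.8% of a member's UMIs. The marker that the rule did not use, Padi4, was found in all 8 libraries at 204 to 440 CPM, its UMIs per 1000000 UMIs summed over these cells. Its mean was 332 CPM in members and 281 in the secondary granule cells described below, so it did not set these apart. After thinning each cell to 1000 UMIs, 18.6% to 35.9% of members had a Padi4 UMI (52.2% to 86.2% before thinning), against 0.393% to 1.48% of B lineage cells (Cd79a and Cd79b, no Csf3r).

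The depth of members differed between libraries, and the demands for 1 UMI of Csf3r and of Cxcr2 were not adjusted for it. No barcode of any library held under 500 UMIs. Members had a median of 3847 (TO 4d 24h) to 6457 UMIs (TOE 2d 24h) and 1326 to 1877 genes, and B lineage cells a median of 4622 to 5432 UMIs. The UMIs summed over members were lowest in TO 2d 0h at 798814 and highest in TOE 4d 24h at 3619296. No barcode was shared between members of any pair of libraries, whereas 40 to 110 barcodes were shared over all cells. Of the 1771 members, 9 had 1% or more of their UMIs in the 67 markers of other cell types, 3 of them in TOE 4d 4h. By library, the 6 macrophage markers summed to 5.82 to 63.7 CPM, the 5 T and NK markers to 14.3 to 53.4, the 4 endothelial markers to 0 to 56.3, the 5 dendritic markers, of which Cd209a was at 0 throughout, to 14.1 to 48.9, the 4 platelet markers to 1.20 to 33.8, the 4 cycling genes to 91.7 to 323 and the 4 progenitor markers to 76.4 to 183. B lineage markers reached 243 to 634 CPM and mesenchymal markers 84.2 to 895. B lineage cells themselves held only 2222 to 2996 CPM of the B lineage markers. That lies under 1%, so the 1% cut above says little about B lineage mRNA in members. Mast cell and basophil markers ran from 7.17 to 812 CPM and eosinophil markers from 5.98 to 698, both highest in TOE 4d 4h. Erythroid markers spanned the widest range, with 35.4 CPM in TOE 4d 24h and 13496 in TOE 4d 4h, where all cells had 14778. The members exceeded all cells of their library for mast cell and basophil (113 CPM over all cells), eosinophil (98.1) and dendritic markers (48.9 and 28.5) in TOE 4d 4h and for endothelial markers in TO 2d 0h (56.3 and 12.3).

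The first question was how many mature neutrophils each library held. Of the cells kept, they were 0.992% (interval 0.838 to 1.17%) for TO 2d 0h. TO 2d 4h had 0.934% and its partner TOE 2d 4h 0.803%. On day 4, TO 4d 4h had 1.64% (1.43 to 1.88%), its partner TOE 4d 4h 0.837% (0.692 to 1.00%), TO 4d 24h 1.30% (1.12 to 1.51%) and its partner TOE 4d 24h 5.93% (5.52 to 6.36%). TOE 2d 24h, without a partner, had 0.748%. TOE 4d 24h thus stood far above the other 7 libraries and supplied 731 members, 41.3% of all. The ratio of TOE to TO was 4.54 (3.86 to 5.37) for the pair 4d 24h, against 0.510 (0.403 to 0.643) for 4d 4h, while 2d 4h gave 0.860 (0.675 to 1.09). The ratios depended on the denominator and the gate. Over the cells of the 3 neutrophil gates described next they were 1.30 at 2d 4h, 0.820 for the pair 4d 4h and 2.07 for 4d 24h, and without the demand on Cxcr2 the ratio for 4d 24h was 2.79. The directions differed between the pairs, and an exact two-sided sign-flip test over the 3 pairs gave p = 1 with a geometric mean ratio of 1.26, where the smallest p that 3 pairs allow is 0.25. Between the 4 libraries taken at 4 h and the 4 taken at 0 or 24 h the mean log2 share differed by -0.62 (exact two-sided permutation test, p = 0.6, smallest possible p 0.0286), and by 0.03 when TOE 4d 24h was left out (exact permutation p = 0.857). A share is relative to the cells recovered, so fewer cells of another type and more mature neutrophils cannot be told apart.

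**Figure D1:**
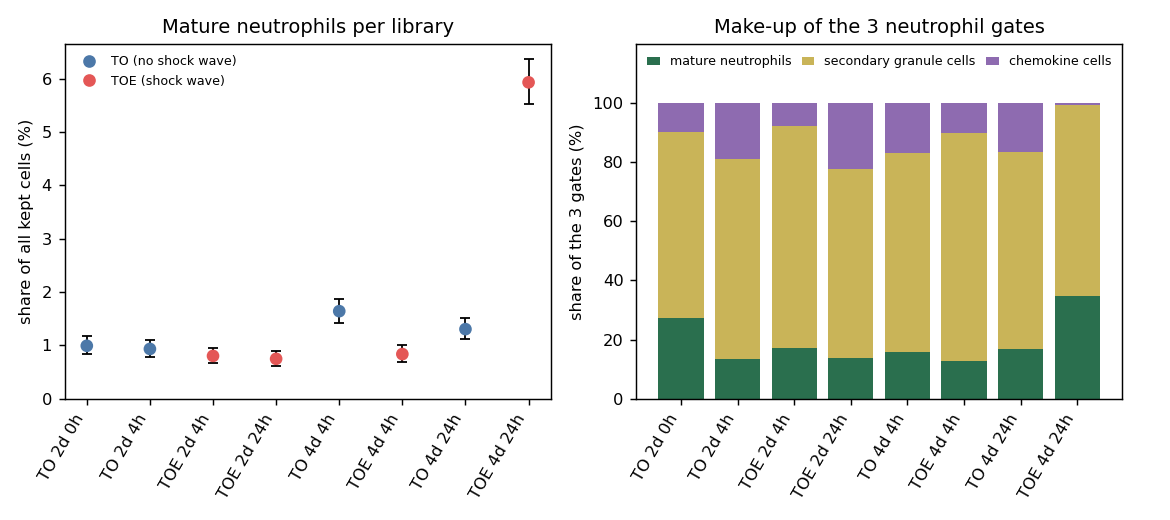
Left, the share of mature neutrophils among all kept cells by library (percent, points with exact 95% binomial intervals); right, the make-up of the 3 neutrophil gates by library (percent of their cells, stacked bars). TOE 4d 24h lies at 5.93% and the other 7 libraries between 0.748% and 1.64%, and chemokine cells are a thin band in TOE 4d 24h.

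Other neutrophils differed as well at 4d 24h. Secondary granule cells, which hold 100 or more Ngp, Camp and Lcn2 UMIs per 10000, were more frequent in TOE by a ratio of 2.12 (1.94 to 2.32). They were less frequent in TOE at 2d 4h (0.731, 0.655 to 0.816) and at 4d 4h (0.709, 0.641 to 0.783). Chemokine cells, which meet the same limits on granule mRNA but hold 20 or more Cxcl1, Cxcl2 and Cxcl3 UMIs per 10000 with no demand on Cxcr2, were 1.29% in TO and 0.138% in TOE, a ratio of 0.107 (0.0609 to 0.176). Within these 3 gates, mature neutrophils were 16.7% (14.6 to 19.0%) for TO 4d 24h but 34.6% (32.6 to 36.7%) for TOE 4d 24h, against 12.9% to 17.2% in the other libraries except TO 2d 0h at 27.5%. Chemokine cells were fewer in TOE in each pair, the ratio at 2d 4h being 0.276 (0.204 to 0.369), that on day 4 at 4 h 0.375 (0.291 to 0.481), and the sign-flip test over the 3 pairs reached its smallest p, 0.25. The libraries outside the pairs had 1.21% for TOE 2d 24h and 0.351% for TO 2d 0h, so TO and TOE overlapped over all libraries.

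The second question was what the mature neutrophils expressed with and without shock waves. At 4d 24h, 6834 genes had 50 or more UMIs over the pair. Of these, 10.8% were higher and 10.6% lower in TOE by more than 2-fold, and the median log2 ratio was -0.01. The list called NF-kB feedback holds subunits, inhibitors and target genes of NF-kB. Of its 16 genes, 15 were measured, 12 were lower by more than 2-fold and none higher, with a median log2 ratio of -1.75. Nfkbia, the inhibitor that holds NF-kB in the cytoplasm, stood at 1199 CPM in TO 4d 24h but 265 CPM in its TOE partner, a ratio of 0.221 (0.202 to 0.241). Before the first session its level was 682 CPM. The pair 2d 4h had 2918 (TO) and 1078 (TOE), the pair 4d 4h 1623 (TO) and 1318 (TOE), and TOE 2d 24h 975. TOE 4d 24h was thus the lowest of the 8 libraries and TO 2d 4h the highest. Rel, a subunit of NF-kB itself, was 385 CPM in TO and 97.5 in TOE (ratio 0.253, 0.218 to 0.295). Birc3, an inhibitor of apoptosis, was 118 and 23.2 CPM (0.197, 0.146 to 0.265), and Traf1, an adaptor of the TNF receptors, 67.3 and 7.18 CPM (0.107, 0.0646 to 0.172). Nfkbiz, a nuclear cofactor, stayed inside 2-fold at 374 and 210 CPM. After thinning to 1000 UMIs, 56.8% of members of TO 4d 24h had an Nfkbia UMI, compared with 19.6% for TOE 4d 24h (88.6% and 55.0% before thinning). B lineage cells, which use this gene as well, had 37.3% and 10.9% after thinning.

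The promoters of 4 members are shown because 12 of 15 were lower past 2-fold, though Nfkbiz was not. RefSeq sequence (GRCr8) was at hand for 13 of the 16 genes, and the NF-kB letters GGG, 2 free bases, TT, 1 free base and CC, searched on both strands of the 250 bases before the start, were found in 7 of them, compared with 4.36% of 33469 promoters. The list was made of NF-kB genes, and its members are counted by gene and the rest by promoter, so this is no test. Nfkb1, also looked up, was not among the 7. The stretches are given on the strand of the gene, read from 5′ to 3′, with each match in capitals and none of the transcribed part. Tnfaip3, a ubiquitin-editing inhibitor of NF-kB at 121 CPM for TO 4d 24h, 27.4 for its partner, and Nfkb2, an NF-kB precursor at 37.0 and 11.1 CPM, were picked with their values already in view. The match in Nfkbia and the 2 in Tnfaip3 read on the other strand. A match says only that these letters are there.
Nfkbia (chr6:78597073-78597133, minus strand): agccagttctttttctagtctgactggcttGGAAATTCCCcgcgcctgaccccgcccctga
Tnfaip3 (chr1:15544007-15544076, minus strand): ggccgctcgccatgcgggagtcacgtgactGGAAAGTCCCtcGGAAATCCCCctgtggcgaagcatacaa
Nfkbiz (chr11:58251678-58251720, plus strand): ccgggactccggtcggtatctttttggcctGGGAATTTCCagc
Nfkb2 (chr1:255108324-255108373, plus strand): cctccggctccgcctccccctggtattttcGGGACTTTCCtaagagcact

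Inflammatory mediators leaned lower in TOE at 4d 24h. Of 29 listed, 17 were measured, 8 were lower and 2 higher in TOE by more than 2-fold, with a median log2 ratio of -0.88. Over all genes 10.6% were lower and 10.8% higher, so the 2 higher ones were near that share. Il1b, the pyrogenic cytokine, was 276 CPM in TO and 89.0 in TOE (ratio 0.322, 0.272 to 0.382), and over all libraries it ranged from 89.0 CPM there to 1205 in TO 2d 4h. Nos2, which makes nitric oxide, was 1218 and 214 CPM (0.176, 0.160 to 0.193), the lowest of the 8 libraries again being TOE 4d 24h. Csf1, the macrophage growth factor, was 94.3 and 6.35 CPM (0.0674, 0.0405 to 0.108), but it was also under 20 CPM in 5 further libraries. Ccl3, a chemokine for monocytes and neutrophils, was 514 and 76.8 CPM (0.149, 0.128 to 0.174). Cxcl2 is a gene of the rule, and its 290 and 12.2 CPM are therefore only a description. No Cxcl1, Cxcl2 or Cxcl3 UMI was found in 103 of 184 members of TO 4d 24h and 707 of 731 of TOE 4d 24h. Il1b had a mean of 2261 CPM in chemokine cells and 448 in mature neutrophils, Ccl3 1868 and 440, and Nos2 4383 and 1058. These genes thus went with genes that the rule limits. Alox5ap did not, at 1079 and 1202 CPM. On the other side, Ccl6, another chemokine, was 1338 CPM in TO and 2085 in TOE (1.56, 1.47 to 1.66), and Alox5ap, needed for leukotriene synthesis, 832 and 1180 CPM (1.42, 1.31 to 1.54), both inside 2-fold. The median of this list rested on its rarer members, and with 200 or more UMIs over the pair it was -0.13, with 4 of 10 lower.

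**Figure D2:**
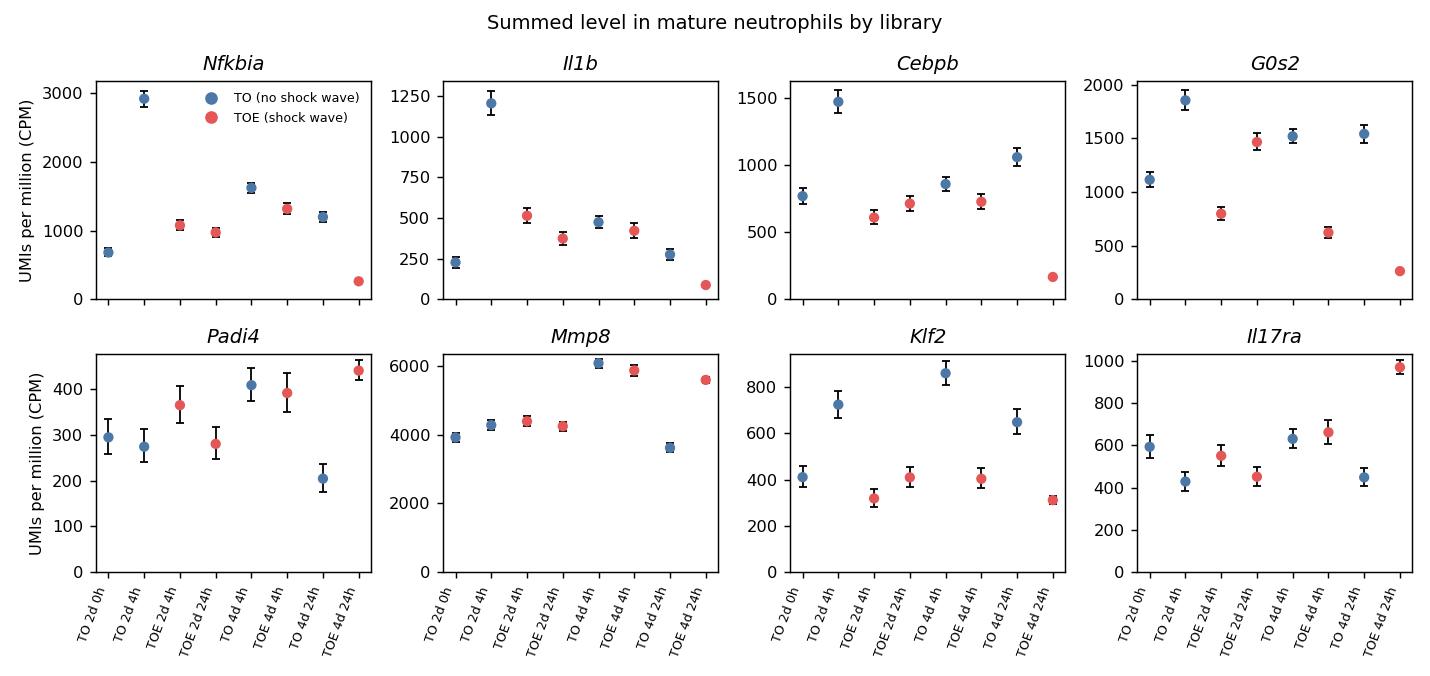
Summed level of 8 genes in mature neutrophils by library (CPM on a linear axis from 0, points with exact 95% Poisson intervals; blue TO, red TOE). Nfkbia, Il1b, Cebpb and G0s2 are lowest in TOE 4d 24h, and Il17ra is highest there at 969 CPM.

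Immediate early genes, which switch on within minutes of stimulation, were also lower in TOE 4d 24h. Of 33 listed, 27 were measured, 17 were lower by more than 2-fold and none was higher at all (median log2 ratio -1.11). The difference was uneven. Ier3 was 304 CPM in TO and 35.6 in TOE (0.117, 0.0943 to 0.145), Atf3 180 and 32.3 CPM (0.180, 0.141 to 0.230), and Jund 2367 and 930 CPM (0.393, 0.372 to 0.415). For Jund, TO 4d 24h was the highest library, and the libraries taken at 4 h held only 456 to 800 CPM, below TOE 4d 24h. The AP-1 members Fos at 611 and 461 CPM, Jun at 1556 and 1134 CPM and Junb at 699 and 484 CPM stayed inside 2-fold. Among neutrophil transcription factors, 4 of 21 measured (22 listed) were lower and 2 higher by more than 2-fold, with a median of -0.11. Cebpb, which drives emergency granulopoiesis, was the clearest of those named: 1061 CPM for TO 4d 24h but 168 for TOE 4d 24h (0.158, 0.143 to 0.176), with 610 to 1473 CPM in the other 6 libraries. Klf2, a factor that keeps leukocytes quiet, was 648 and 311 CPM (0.481, 0.435 to 0.533).

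Genes of cell death and survival leaned lower in TOE at 4d 24h. Of 25 listed, 21 were measured, 10 lower and 2 higher by more than 2-fold (median -0.58). Over all genes 10.6% were lower and 10.8% higher, so only the lower count stood above that share. Both a killer and guardians were among the lower ones. Bcl2l11, a BH3-only promoter of apoptosis, was 110 CPM in TO and 11.6 in TOE (0.106, 0.0717 to 0.153). Mcl1, on which neutrophil survival depends, was 791 and 339 CPM (0.429, 0.391 to 0.471), and Bcl2a1, a related survival protein, 319 and 93.7 CPM (a ratio of 0.294). Gadd45a, a stress-response gene, was 1571 and 516 CPM (0.328, 0.306 to 0.352). Cflar, an inhibitor of caspase-8, stayed inside 2-fold at 218 and 156 CPM.

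Heat shock genes were lower in TOE 4d 24h for 7 of 13 measured (17 listed), none being higher, with a median of -1.23. Hsp90aa1, an inducible HSP90, was 3056 CPM in TO and 1216 in TOE (0.398, 0.379 to 0.418), and Hsp90ab1, the constitutive form, 1312 and 338 CPM (0.258, 0.238 to 0.280). Hspa8, Dnaja1 and Hsph1 differed less, with log2 ratios of -0.12, -0.07 and -0.30. Fth1, the ferritin heavy chain that stores iron, is in none of these lists and was 5455 and 1372 CPM, the lowest of all libraries being again TOE 4d 24h. The antioxidant Sod2 was 2642 and 946 CPM (0.358, 0.340 to 0.378), while in the oxidative burst list as a whole the median was 0.08, with 1 of 12 measured (14 listed) higher and 1 lower. Cyba, a subunit of the NADPH oxidase, stood at 748 to 966 CPM in every library.

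Granule, trap and receptor genes were mixed at 4d 24h. In the granule stage list 2 of 16 measured (22 listed) were higher and none lower by more than 2-fold (median 0.15), a share near the 10.8% over all genes. Mmp8, neutrophil collagenase, was 3616 CPM in TO and 5588 in TOE (1.55, 1.49 to 1.60), and Lyz2, lysozyme, 8860 and 13863 CPM (1.56, 1.53 to 1.60), but both TOE values lay within the range of the other libraries. Padi4 was 204 and 440 CPM (2.15, 1.84 to 2.52), the lowest and the highest of the 8. In the extracellular trap list, 3 of 10 measured (13 listed) were higher and 1 lower (median -0.08), the lower one being Slpi, an elastase inhibitor, at 1807 and 453 CPM. Of the growth factor and cytokine receptors, 3 of 20 measured (22 listed) were higher and none lower (median 0.35). Il17ra, the receptor of interleukin-17, was 449 and 969 CPM (2.16, 1.95 to 2.40), and no other library exceeded 662. Chemotaxis and adhesion receptors were mixed, with 1 of 20 measured (27 listed) higher, 4 lower and a median of 0.27. Hcar2, a receptor for beta-hydroxybutyrate and niacin, was 1031 and 278 CPM (0.270, 0.246 to 0.295), and Itgb2, the integrin beta-2 chain, 717 and 317 CPM (0.442, 0.401 to 0.488).

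**Figure D3:**
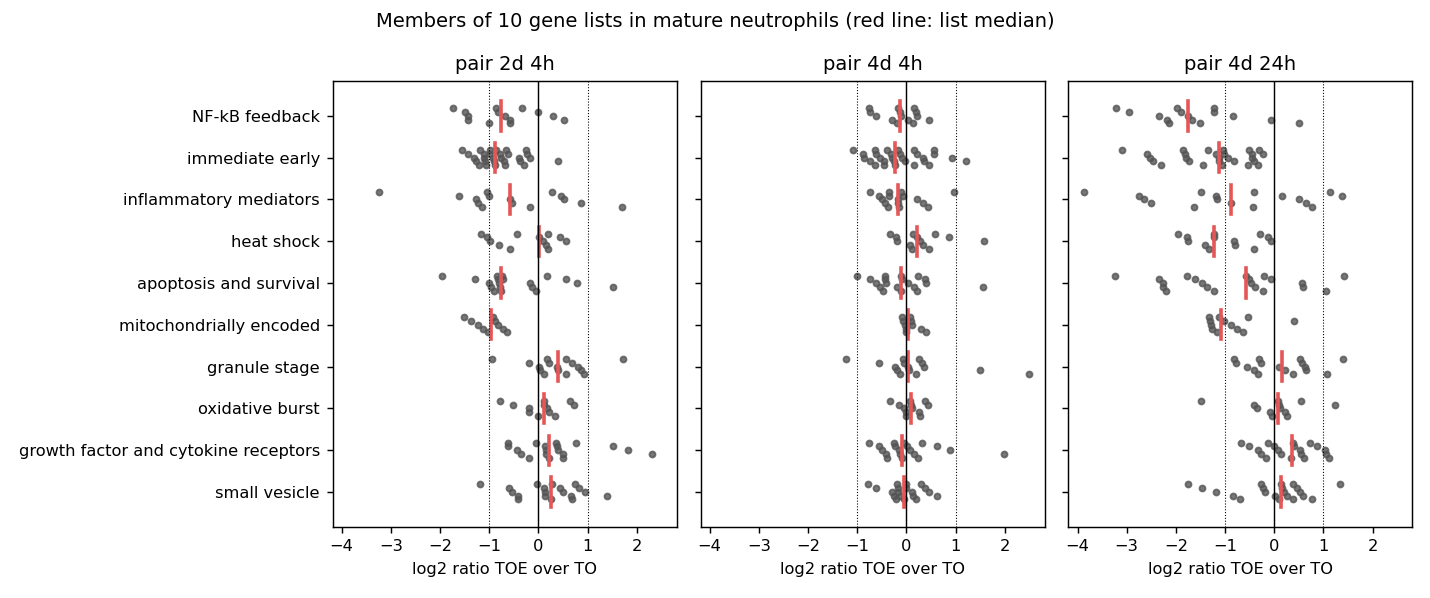
Log2 ratio of TOE to TO in mature neutrophils for each measured member of 10 gene lists, by pair (grey points; red line, list median; dotted lines, 2-fold). NF-kB feedback, immediate early, heat shock and mitochondrially encoded genes lie to the left at 4d 24h, and most lists centre on 0 at 4d 4h.

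Secondary granule and B lineage cells were compared at 4d 24h in the same way. The NF-kB feedback list had a median log2 ratio of -1.75 in mature neutrophils, -1.43 in secondary granule cells and -1.56 in B lineage cells, with 12 of 15, 9 of 15 and 13 of 16 members lower by more than 2-fold. Immediate early genes had medians of -1.11, -1.36 and -0.86 in the same order, inflammatory mediators -0.88, -0.72 and -0.96, and mitochondrially encoded genes -1.08, -0.77 and -1.01. Heat shock genes had medians of -1.23, -0.73 and -0.53. The chemokine cells, of which TOE 4d 24h held 17, differed from this for some lists. Their NF-kB feedback median was -0.19 over 11 members, that of immediate early genes 0.35, and that of heat shock genes 1.38 with 7 of 8 members higher by more than 2-fold, while inflammatory mediators had -0.35 and mitochondrially encoded genes -1.48. Over all genes, 7.61% were lower and 11.2% higher by more than 2-fold in secondary granule cells, 7.2% lower and 15.4% higher in B lineage cells, and 9.13% lower and 10.2% higher in chemokine cells. Whether the cell types differed from each other was not tested.

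**Figure D4:**
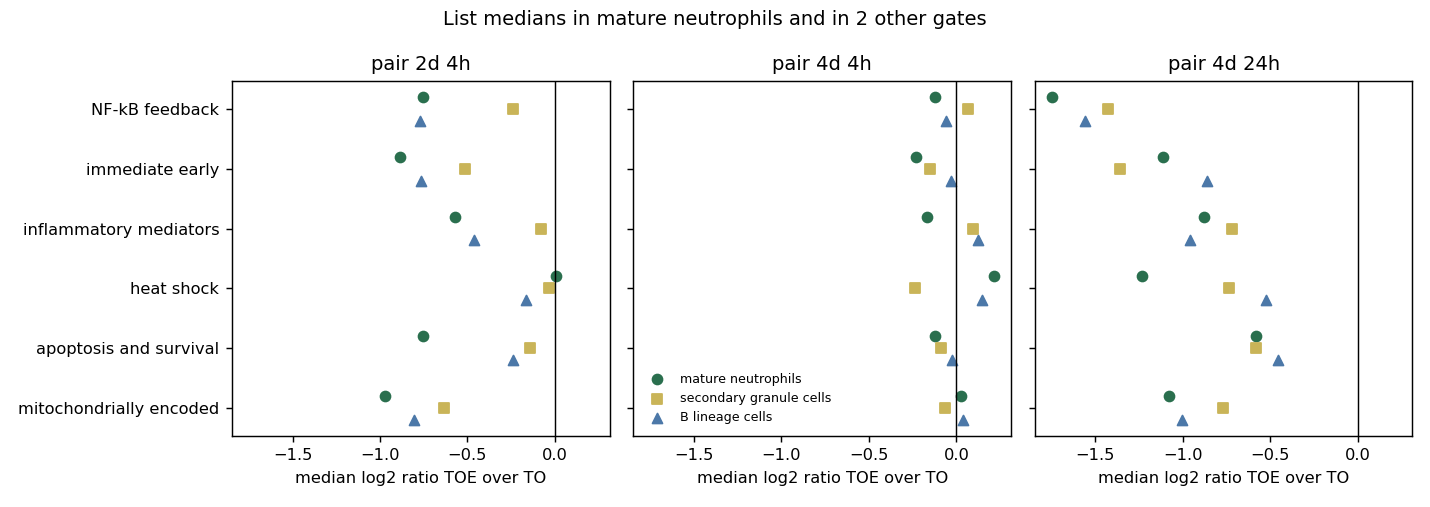
Median log2 ratio of TOE to TO for 6 gene lists in mature neutrophils (circles), secondary granule cells (squares) and B lineage cells (triangles), by pair. At 4d 24h the 3 gates lie on the same side of 0 for all 6 lists, with NF-kB feedback between -1.75 and -1.43.

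The 5 genes that stood out most as higher at 4d 24h rested on few molecules in TO. Dlgap2, better known as a synaptic scaffold, had 1 UMI in TO and 323 UMIs in 146 of 731 cells in TOE, a ratio of 79.5 with an interval from 14.2 upward. Rtn2, a reticulon, had 3 and 220 UMIs (18.1, 6.10 to 88.2), Retn, resistin, 3 and 217 (17.8, 6.01 to 87.0), and Hmgb2l1 6.73 and 79.6 CPM (11.8, 5.36 to 32.5). Retn was at 122 CPM in TOE 2d 24h as well and at or under 4.65 CPM in the other 6. Hmgb2l1 was 68.3 to 162 CPM in the libraries taken at 4 h, so its level in TOE 4d 24h lay within the range of the others. Arhgef11, an activator of RhoA, had 1.12 and 35.1 CPM. The clearest lower genes besides Cxcl2 were those of haemoglobin, with Hba-a1 at 921 and 10.8 CPM, Hba-a2 at 450 and 7.74, Hbb-bs at 175 and 7.18 and Hbb-b1 at 60.6 and 1.66. These are erythroid transcripts, and the erythroid markers summed to 1621 CPM for TO 4d 24h but to 35.4 for TOE 4d 24h. The same sum was 3841 and 259 CPM in B lineage cells and 10436 and 276 CPM over all cells of these libraries, and its part in the haemoglobin values of the members was not tested.

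At 2d 4h, 4416 genes were compared, of which 4.69% were higher and 5.53% lower in TOE by more than 2-fold. Several of the groups that were lower at 4d 24h had negative medians here too. NF-kB feedback genes were lower by more than 2-fold for 5 of 14 measured (median -0.75), immediate early genes for 10 of 29 (-0.89), inflammatory mediators for 7 of 15 with 1 higher (-0.57), and apoptosis and survival genes for 3 of 19 with 1 higher (-0.76). Of the heat shock genes 2 of 13 were lower, with a median of 0.00 that ranged from -0.60 (Ngp, Camp and Lcn2 under 50 UMIs per 10000) to 0.15 (no chemokine limit) over the alternatives. Nfkbia was 2918 CPM in TO and 1078 in TOE (0.369, 0.342 to 0.398), Il1b 1205 and 515 CPM (0.427, 0.381 to 0.478), and Ccl3 1016 and 107 CPM (0.105, 0.0842 to 0.130). For Nfkbia, Il1b, Nos2, Cebpb and Ier3, the TO library was the highest of all 8, while the TOE library lay among the others. In B lineage cells the NF-kB feedback median was -0.77 and in secondary granule cells -0.24. Growth factor and cytokine receptors went the other way, with 3 of 19 higher and none lower (median 0.21). Il1r1, the signalling receptor of interleukin-1, was 25.1 and 126 CPM (5.03, 3.14 to 8.45), and its partner Il1rap 63.4 and 227 CPM (3.58, 2.63 to 4.94). Pattern recognition and Fc receptors were lower for 6 of 22 measured (27 listed), with 1 higher and a median of -0.41, among them Fcgr2b, the inhibitory IgG receptor, at 117 and 30.7 CPM (0.262, 0.165 to 0.405). On day 4 that list had 1 of 22 lower at 4 h (median -0.18), and 2 lower and 4 higher of 24 at 24 h (0.08).

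By the bound of the interval nearest to 1, the first 5 higher genes at 2d 4h were RT1-Da, RT1-Ba, Spidr, Ifitm3 and RGD1561730. RT1-Da and RT1-Ba encode class II antigen-presenting molecules, and their UMIs sat in few cells: of the 258 RT1-Da UMIs in TOE 2d 4h, 160 were in 1 cell, and of the 125 RT1-Ba UMIs, 82. Spidr, a DNA repair scaffold, had 8 UMIs in TO and 111 UMIs in 56 of 136 cells in TOE. Ifitm3, an antiviral membrane protein, had 3 and 56 UMIs, 23 of the latter in 1 cell. The first lower genes besides Ccl3 were Kcne2, RGD1562525, LOC102546903 and Ifi27l2b. Kcne2, a potassium channel subunit, had 62 UMIs in 4 cells in TO and 1 UMI in TOE. Ifi27l2b, an interferon-induced gene, was 646 and 44.4 CPM (0.0688, 0.0484 to 0.0952) and varied widely over libraries, up to 1671 CPM in TOE 2d 24h. RGD1562525 had 95.6 CPM in TO and 2.28 in TOE in this pair, 46.6 and 3.49 on day 4 at 4 h, and 64.0 and 64.4 on day 4 at 24 h.

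At 4d 4h the libraries were closest. Of 4792 genes, 3.57% were higher and 1.82% lower in TOE by more than 2-fold. No member of the NF-kB feedback list (14 measured, median -0.12) or of the inflammatory mediators (16, -0.17) passed 2-fold, and 1 of 29 immediate early genes was higher and 1 lower (-0.23). Nfkbia was 1623 CPM in TO and 1318 in TOE (0.812, 0.755 to 0.873). The first 5 higher genes were Mcpt10, Mcpt9, Mcpt8, Prg2 and Lgals5. The mast cell proteases Mcpt10 and Mcpt8 and Prg2, eosinophil major basic protein, each came almost wholly from 1 member. In TOE 4d 4h, 1 cell held 1014 of 1021 Mcpt10 UMIs, 1 cell 649 of 651 Mcpt8 UMIs and 1 cell 587 of 594 Prg2 UMIs. Whether this was the same cell was not examined. Lgals5, an erythroid galectin, had no UMI in TO and 51 UMIs in 9 cells in TOE, 26 of them in 1 cell. The haemoglobin gene Hba-a1 was 776 CPM in TO and 7138 in TOE, with 3025 of 6137 UMIs in 1 cell. Without cells scored as doublets its log2 ratio was 0.06 in place of 3.20. The first 5 lower genes were RGD1566006, RGD1562525, Siglec5, Fcgr2b and Ubxn2b. Siglec5, an inhibitory sialic acid receptor, was 109 and 20.9 CPM (0.192, 0.111 to 0.315), and Fcgr2b 148 and 43.0 CPM (0.290, 0.198 to 0.414). For both genes TO 4d 4h was among the higher libraries, and Fcgr2b was 190 CPM in TOE 4d 24h.

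A further question was which genes differed in the same direction in TOE whatever the day and hour. The 3 pairs share no library, but they differ in day and hour and are no replicates of one condition. Of 4202 genes measured in all 3 pairs, 0.904% (38) were higher and 1.67% (70) lower in TOE by more than 1.5-fold in each. Ordered by their smallest fold over the pairs, the first 8 lower genes were Rab20, Cass4, G0s2, Spata13, Tagap, Ddit4, Klf2 and Eaf1. G0s2, an inhibitor of the lipase ATGL, is given in full as an example. For the pair 2d 4h it was 1853 CPM (TO) and 798 (TOE), a ratio of 0.431 (0.393 to 0.471). The pair 4d 4h had 1518 (TO) and 622 (TOE), a ratio of 0.410 (0.372 to 0.451), and the pair 4d 24h 1541 (TO) and 264 (TOE), a ratio of 0.171 (0.157 to 0.186). TO 2d 0h held 1114 CPM and TOE 2d 24h, which has no partner here, 1465, so TO and TOE overlapped over all 8 libraries. Klf2 in TOE was 0.441 (0.381 to 0.509), 0.470 (0.415 to 0.531) and 0.481 (0.435 to 0.533) times its TO level in the same order of pairs. Ddit4, an inhibitor of mTORC1 induced by stress and glucocorticoids, was 158 and 71.7 CPM, 112 and 47.7, and 139 and 18.0 in the 3 pairs in that order. Rab20, a phagosomal GTPase, was 136 and 55.8 CPM, 121 and 48.9, and 118 and 13.5. TOE 2d 24h held 119 CPM of Rab20 and 44.7 of Ddit4, and TO 2d 0h 72.6 and 38.8, so both genes overlapped between TO and TOE as well.

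The first 8 higher genes were Oscar, Pde7b, Ap2a2, Vps9d1, Tns1, Nek10, Dera and Ifit1bl, and all but Ifit1bl stayed at or under 158 CPM in every library. Ifit1bl is an interferon-induced antiviral gene. In that order of pairs it was 427 CPM in TO and 953 in TOE (2.23, 1.97 to 2.53), 655 and 1214 (1.85, 1.69 to 2.03), and 294 and 577 (1.96, 1.72 to 2.24). It stood at 929 CPM before the first session, with 328 for TOE 2d 24h, so TO and TOE overlapped for this gene too. Oscar, an immune receptor for collagen, was 31.1 and 158 CPM, 22.5 and 74.4, and 5.61 and 19.9 in the same order of pairs, and Pde7b, a cAMP phosphodiesterase, 34.7 and 82.0, 25.6 and 68.6, and 25.8 and 89.5.

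Interferon-stimulated genes, a list that includes Ifit1bl, had positive medians in both 4 h pairs and one near 0 at 4d 24h. Of 34 listed, 11 were measured at 2d 4h (2 higher, 1 lower, median 0.61), 15 at 4d 4h (3 higher, none lower, 0.23) and 20 at 4d 24h (1 higher, 2 lower, 0.01), where all genes had 4.69%, 3.57% and 10.8% higher. Oas1a, which senses double-stranded RNA, was higher in TOE in both 4 h pairs (246 and 650 CPM, then 368 and 779) and lower at 24 h (113 and 59.7 CPM). Isg15, a ubiquitin-like protein, was 134 CPM in TO 2d 0h and 17.9 to 80.8 CPM elsewhere.

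Since the study followed small extracellular vesicles and their release after shock waves, vesicle genes and sensors of ATP and force were read as well. Of 23 vesicle genes, 1 was higher and 1 lower of 19 measured at 2d 4h (median 0.25), none of 19 passed 2-fold at 4d 4h (-0.06), and 1 was higher and 3 lower of 21 at 4d 24h (0.14). The higher one at 4d 24h was Rab27a, the GTPase that docks secretory vesicles, at 215 CPM in TO and 542 in TOE (2.51, 2.17 to 2.93). Among the 3 lower ones were Hspd1, at 112 CPM in TO and 33.2 in TOE, and Vps4b, at 540 and 195 CPM. For both, TO 4d 24h was the highest and TOE 4d 24h the lowest of the 8 libraries. Rab27a is followed here as one of the 4 most abundant members. Elsewhere Rab27a was 419 CPM before the first session, 434 (TO) and 516 (TOE) in the first pair, 463 (TO) and 445 (TOE) in the second, and 260 in TOE 2d 24h, so TO 4d 24h was the lowest and TOE 4d 24h the highest library. Sdcbp, the vesicle adaptor syntenin, stayed at 596 to 1111 CPM and Cdc42, a GTPase of the actin skeleton, at 1076 to 1345. Of 21 genes of ATP signalling and force sensing, none of 10 passed 2-fold at 2d 4h (-0.25) or of 10 at 4d 4h (-0.10), and 2 were higher and 1 lower of 11 at 4d 24h (0.46). P2rx7, the receptor in the release pathway that the paper proposes, had too few UMIs to be compared at 2d 4h. The paper examined that pathway in cultured mesenchymal stem cells from marrow, so its level in neutrophils does not bear on that proposal. For both lists, the counts at 4d 24h stand beside 10.8% higher and 10.6% lower over all genes. Nt5e, the enzyme that makes adenosine from AMP, was 23.6 and 71.3 CPM at 4d 24h (3.02, 1.94 to 4.97), and Ezr, which links membrane and actin, 301 and 124 CPM.

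Smaller lists are given by their counts. Over all genes, the shares higher and lower past 2-fold were 4.69% and 5.53% at 2d 4h, 3.57% and 1.82% for the pair 4d 4h, and 10.8% and 10.6% for 4d 24h, so a count of 1 or 2 in a list of this size tells little. Glucocorticoid response genes (20 listed), left without Lcn2 as a gene of the rule, had 1 higher and 2 lower of 10 at 2d 4h (median -0.16), none and 1 of 10 at 4d 4h (-0.03) and 1 and 5 of 12 at 4d 24h (-0.28). Circadian genes (19 listed) were mostly too rare, with 1 measured in each 4 h pair (-0.24, then -0.04) and 4 at 4d 24h, 1 of them lower (-0.51). Hypoxia and glycolysis genes (27 listed) had 1 of 18 higher at 2d 4h (0.50), none of 19 past 2-fold at 4d 4h (0.11), and 1 higher and 1 lower of 21 at 4d 24h (0.02). Granule stage genes had 1 higher of 16 at 2d 4h (0.39) and 2 higher and 1 lower of 15 at 4d 4h (0.03). Chemotaxis and adhesion receptors had 2 higher and 2 lower of 23 at 2d 4h (0.06) and 1 higher of 21 at 4d 4h (-0.03), and growth factor and cytokine receptors 1 higher of 19 at 4d 4h (-0.09). These 2 receptor lists hold Cxcr2 and Csf3r of the rule, neither of which passed 2-fold in any pair. No oxidative burst gene passed 2-fold at 2d 4h (12 measured, 0.11) or 4d 4h (12, 0.08). Extracellular trap genes had 1 higher of 8 at 2d 4h (0.39) and 1 higher and 1 lower of 8 at 4d 4h (-0.01). Neutrophil transcription factors had 3 higher and 3 lower of 20 at 2d 4h (-0.09) and 2 lower of 19 at 4d 4h (-0.06). Heat shock genes had 1 higher of 13 at 4d 4h (0.21), and apoptosis and survival genes 1 higher and 1 lower of 19 (-0.12). Cytosolic ribosomal protein genes (20 listed and measured) did not pass 2-fold at 2d 4h (-0.07) or 4d 4h (0.52), and 1 was lower at 4d 24h (-0.56). Mitochondrially encoded genes (13 listed) were lower in TOE for 5 of 10 at 2d 4h (-0.97), for 0 of 10 on day 4 at 4 h (0.03), and 24 h after that session for 7 of 12 (-1.08). The mitochondrial share of UMIs is also a filter on cells, with a median of 0.955% to 1.69% per library.

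Among S100 proteins and annexins (12 listed), left without S100a8 and S100a9 of the rule, none passed 2-fold at 2d 4h (9 measured, 0.19), 3 were higher of 8 at 4d 4h (0.07) and 1 was lower of 8 at 4d 24h (0.12). The lower one was Anxa1, an annexin that limits neutrophil recruitment, at 5809 and 2599 CPM. The higher ones at 4d 4h were S100a4, S100a6 and S100a10, whereas S100a11 stayed at 3128 to 4285 CPM in all libraries. S100a4 was 237 CPM before the first session and 456 in TOE 2d 24h. In TO and then TOE, it was 182 and 295 CPM for the pair 2d 4h, 56.7 and 306 for the pair 4d 4h, and 44.9 and 54.2 for the pair 4d 24h. Monocytes carry S100a4 as well, and the 6 monocyte markers, 5 of them found in every library, summed to 379 CPM for TOE 2d 24h, and in TO and then TOE to 226 and 320, 53.6 and 173, and 74.1 and 74.9 CPM for those pairs. Their part in the S100a4 levels was not tested. Serpinb1a, an inhibitor of neutrophil elastase and cathepsin G, was 691 CPM in TO and 2623 in TOE on day 2 at 4 h, 409 and 1542 on day 4 at 4 h (3.77, 3.40 to 4.17), and 110 and 118 on day 4 at 24 h (1.08, 0.861 to 1.35). It was thus higher in TOE in both 4 h pairs, while the interval at 24 h included 1.

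The libraries taken at 4 h were then set against those taken at 0 or 24 h. Of 5258 genes with a mean of 20 CPM or more, 484 (9.21%) were higher in all 4 libraries of 4 h than in all 4 of 0 or 24 h, and 156 (2.97%) lower. Among the higher genes with the largest gap, Cd59b, a complement inhibitor, was 235 to 386 CPM at 4 h and 48.8 to 96.2 CPM otherwise, and Il6 23.3 to 117 and 1.09 to 6.73 CPM, from at most 10 cells in any library. Further ones were LOC120094738, LOC120102367, LOC120099280 and LOC100359668. Among the lower genes, the ribosomal RNAs LOC120093067 and LOC120102105 were 1454 to 2036 and 807 to 1442 CPM at 4 h and 6219 to 8881 and 5433 to 6073 CPM otherwise. The others were LOC120102096, RGD1561636, LOC120095551 and LOC684797. The share of these 2 ribosomal RNAs in all cells of a library was 0.663% to 0.789% at 4 h and 1.40% to 3.00% otherwise, so the gap was also there outside mature neutrophils, and the hour cannot be told apart from how the libraries were prepared. Of the lists, growth factor and cytokine receptors had 7 of 19 higher at 4 h and none lower, immediate early genes 8 of 29 and 1 lower, and oxidative burst genes 5 of 12 and 1 lower. Neutrophil transcription factors had 6 of 20 higher, hypoxia and glycolysis genes 5 of 19, and chemotaxis and adhesion receptors 5 of 22. Cytosolic ribosomal proteins had 0 of 20 either way, and mitochondrially encoded genes 0 of 12 higher and 3 lower. S100a8, a gene of the rule, was 32544 to 36816 CPM at 4 h and 55493 to 68498 CPM otherwise. Each of the 3 pairs was matched for hour.

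Members also varied among themselves. Over 1767 members thinned to 1000 UMIs (4 with fewer were left out), the variance of a gene's UMIs over its mean was 1.06 for the median of 2811 genes, where 1 is what counting alone gives. Stfa2l3, of the stefin family of protease inhibitors, had a median of 18.5 over the 8 libraries (13.9 to 29.7), and LOC120095659, a protein-coding gene with no further name, 17.2 (10.0 to 29.6). Stfa2l1, Stfa2l2, Stfa2 and Csta3 of the same family were among the first 15 as well, at 5.46 to 6.23, and near-identical copies of these genes could share reads. Hsp90aa1 reached 8.82 (5.49 to 19.4), Dnaja1 7.32 (1.99 to 15.8), Hsph1 7.14 (0.953 to 18.2) and Hspa1a 5.14 (2.13 to 12.5), so heat shock mRNA was unevenly spread over cells, to a different degree in each library. The heat shock element, searched as TTC, 2 free bases, GAA, 2 free bases and TTC, was found in 4 of the 12 heat shock genes with a promoter entry, against 0.663% of all promoters. The list was made of heat shock genes, so this is no test, and Dnaja1, also looked up, was not among the 4. The stretch of Hsph1 is shown as an example, with the match in capitals.
Hsph1 (chr12:10427302-10427367, plus strand, GRCr8): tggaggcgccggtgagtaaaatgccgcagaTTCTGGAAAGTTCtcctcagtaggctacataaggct
The rest of the first 15 were Retnlg at 7.25, Jun at 6.85, Fth1 at 6.57, S100a6 at 6.39 and G0s2 at 5.91.

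The last comparison set mature neutrophils beside secondary granule cells of the same libraries. The gates were cut on granule mRNA but differ in other demands too. Secondary granule cells needed 1 UMI of Csf3r or S100a8 and met the defensin limit. No Cxcr2 demand, S100a8 and S100a9 floor or chemokine limit was set for them. The differences are therefore a description of what goes with these cuts. Of 3132 genes with a mean of 50 CPM or more in either gate, 4.44% were higher in mature neutrophils by more than 2-fold in all 8 libraries and 2.04% lower. Ccl6 had a mean of 1455 CPM in mature neutrophils and 22.4 in secondary granule cells, with a log2 ratio of 4.95 to 7.93. Slfn4, a schlafen gene induced by interferon, had 783 and 36.1 CPM, Pla2g7, which breaks down platelet-activating factor, 372 and 14.7 CPM, and Stfa2l3 5794 and 392 CPM. Ifit1bl, Ifit3, LOC120096269 and Steap4, a metalloreductase, completed the first 8, and 5 of the 9 interferon-stimulated genes measured were higher by more than 2-fold in all 8 libraries. These genes were not particular to mature neutrophils. Chemokine cells had higher means for Ccl6 (2600 CPM), Slfn4 (1198), Pla2g7 (383), Stfa2l3 (6122) and Ifit3 (448 against 166). Their means were lower for Ifit1bl (464 against 672), LOC120096269 (168 against 224) and Steap4 (117 against 128). Secondary granule cells held more Cebpe, the factor that turns on secondary granule genes, at 329 CPM against 29.4, and more Chit1, chitotriosidase, at 272 CPM with a log2 ratio of -5.21 to -3.51, and Inhba, a subunit of activin, at 138 against 7.69. Pcsk6, Piwil2, Reps2, Qsox1 and Msra were the others. Padi4 had log2 ratios of -0.19 to 0.42. Of granule genes outside the rule, Lyz2, Mmp8 and Chi3l1 were higher in mature neutrophils in 8 of 8 libraries, Mmp9 in 7 and Alpl in 0. Of the NF-kB feedback list 0 of 11 passed 2-fold in all 8 libraries in either direction, but Nfkbia, Nfkb1, Rel and Birc3 were higher in mature neutrophils in 8 of 8 libraries, with median log2 ratios of 0.65, 0.55, 0.28 and 0.82. In chemokine cells the means of these 4 were 4602, 829, 410 and 273 CPM, above the 1257, 374, 260 and 123 in mature neutrophils.

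**Figure D5:**
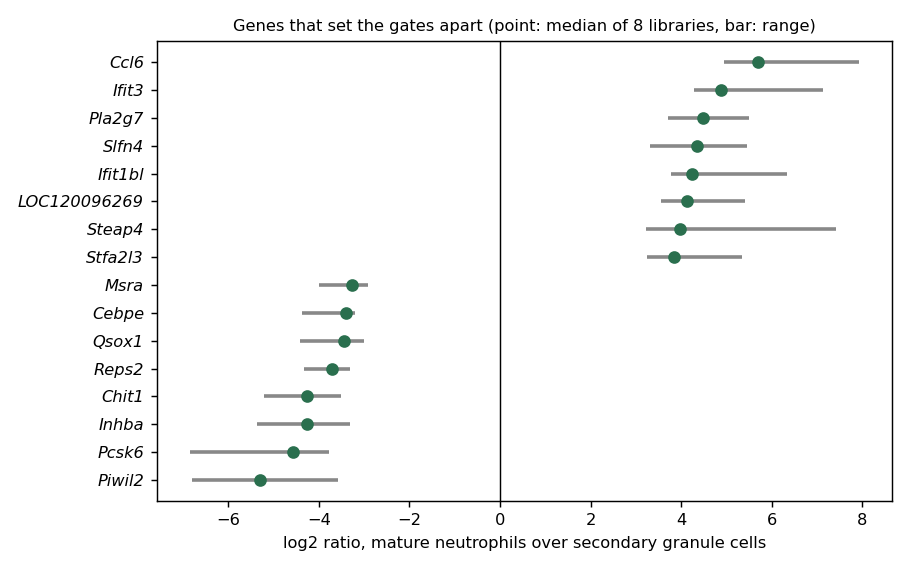
Log2 ratio of mature neutrophils to secondary granule cells for the 16 genes with the widest separation (points, median of 8 libraries; bars, range over libraries). Ccl6 ranges from 4.95 to 7.93 and Cebpe from -4.36 to -3.19.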

How the data were processed

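For 8 libraries, the authors deposited raw UMI counts without normalization. The submitters' processing notes name Cell Ranger 9.0.0, Seurat and R 4.0.3. The build is listed as mRatBN7.2 and GRCh38 without roles. Of 116711 barcodes, 114232 were kept. The members and gene lists were chosen with earlier results of these data known. Doublets were kept. As an alternative, Scrublet in scanpy 1.11.5 removed cells scoring over 0.25.

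UMIs were summed over members and given as CPM with exact Poisson intervals. Shares have exact Clopper-Pearson intervals and ratios exact conditional intervals, and they cover counting error only. Log2 ratios added 0.5 UMI. With 1 library per condition, a gene was called past 2-fold only by size, with 50 or more UMIs over the pair. The computation used python 3.11.15, numpy 2.4.6 and scipy 1.17.1.

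Genes named in the text were the genes of the rule and Padi4, the 5 higher and 5 lower genes per pair ranked by the interval bound nearest to 1, 8 genes each way past 1.5-fold in all 3 pairs ranked by smallest fold, the 4 most abundant members of each list and the 3 with the largest ratio of highest to lowest CPM (mean of 20 CPM or more), 6 genes each way by the gap between hours, 15 by variance over mean after thinning, and 8 each way against secondary granule cells. Rule genes were left out of the last 3. In addition, Tnfaip3 and Nfkb2 were named after their values were seen.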

Additional observations from a re-analysis of the deposited data

Results flagged for a closer look

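The share of mature neutrophils of 5.93% in TOE 4d 24h was far from those of the other 3 libraries taken at 0 or 24 h (0.748% to 1.30%), and the share of 1.64% in TO 4d 4h was far from those of the other 3 taken at 4 h (0.803% to 0.934%). These 4 libraries are different conditions, not replicates, and chance marks about 1 group in 20 of this kind.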

How the results depend on the processing

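The share ratio of TOE to TO kept its direction at 4d 4h and 4d 24h. Without the demand on Cxcr2 it was 0.613 for 2d 4h, 2.79 for 4d 24h, and without the chemokine limit 0.620 and 3.38. With B lineage cells left out of the denominator it was 1.19 at 2d 4h, and with the 3 neutrophil gates as denominator 1.30, 0.820 and 2.07 for the 3 pairs in order of time. The difference by hour ranged from -0.97 to 0.026 when each library was left out in turn, reversing without TOE 4d 24h, an alternative chosen after seeing the data. The percentage of genes past 2-fold followed the UMI minimum. With 10 UMIs it was 10.8 (higher, 2d 4h), 10.1 (higher, 4d 4h) and 5.16 (lower, 4d 4h), and with 200 UMIs 2.42, 1.71 and 0.856. A prior of 5 UMIs gave 0.981 (lower, 4d 4h) and 5.25 (higher, 4d 24h), with a shift of the all-gene median to -0.17 at 4d 24h, and means over cells 7.88 (higher, 2d 4h). With doublets removed, the log2 ratios at 4d 4h turned to -0.060 for Hba-a2 and -0.18 for Hbb-bs, and the cause was not tested. Of 693 recomputed list medians 627 stayed within the SD of the list's log2 ratios over the square root of their number and 66 did not. None beyond 0.5 on the log2 scale changed sign, but medians near 0 did, such as cytosolic ribosomal proteins at 2d 4h (-0.07, range -0.30 to 0.34) and extracellular traps at 4d 24h (-0.08, -0.22 to 0.43). Of 5916 recomputed values of named genes 5749 kept their side of 2-fold, 165 did not, and 2 reversed. The NF-kB feedback median at 4d 24h lay between -1.90 and -1.66. No replicate block could be fitted because each condition has 1 library. Depth limited genes under 50 UMIs over a pair.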
